A study of Mus musculus with 9 samples.

Results

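The genes described here are 10 genes of the response to low oxygen and of blood vessel signalling: Hif1a, Epas1, Egln3, Vegfa, Pgf, Adm, Angptl4, Ddit4, Slc2a1 and Bnip3. They were taken by gene symbol from a table of 40202 genes and each symbol was found in it. Bulk RNA sequencing measured them in 3 groups of 3 libraries from wild-type mice, all labelled as retinal pigment epithelium (RPE). The first group, called treated here, was aged 24 months and had received vutiglabridin, a small molecule derived from glabridin, for 6 months. The old controls were also aged 24 months and the young controls 9 months, and neither control group received the compound. The labels name no sex, dose, route, vehicle or sequencing batch. They do not say whether libraries came from separate or pooled animals, so a p-value here reflects only how far these libraries spread, which may be technical.

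Cells sense oxygen through hypoxia-inducible factors (HIFs), which pair an oxygen-labile alpha subunit with the stable subunit Arnt. Prolyl hydroxylases of the Egln family mark the alpha subunits for breakdown through Vhl when oxygen is present, so much of this control acts on protein and is not seen in the RNA of the subunits. In low oxygen the pair binds short DNA elements and switches on genes of glucose uptake, glycolysis and vessel growth. The RPE supplies Vegfa to the capillaries of the choroid behind it and carries glucose to the photoreceptors through Slc2a1, which gives both genes a role in this tissue outside hypoxia.

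Total counts per library ran from 44196290 to 56797891. Levels are CPM, a gene's count scaled to a common library size that was adjusted by TMM factors, and a gene was called at an adjusted p under 0.05 over 25273 genes. All 15 RPE markers averaged 1 CPM or more over the libraries, but so did all 17 endothelial, 14 rod, 12 macrophage and 12 skeletal muscle markers. Most of the 25273 genes passed that bar too, so it does not show how much of each cell type was present. RPE names the dissected sample below, and fewer cells of a type cannot be told apart from less RNA per cell. Treated replicate 2 stood apart, with 5144 CPM summed over 6 erythroid markers against 91.1 to 645 CPM in the other 8 libraries, and 404 CPM over 10 markers of stratified epithelium against 48.4 to 102 CPM. Young control replicate 1 stood apart at -2.001 on the second axis of a multidimensional scaling plot, where the other libraries lay between -0.459 and 0.725.

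Of the 10 genes, Adm, the vasodilator and angiogenic peptide adrenomedullin, was the only one called in any of the 3 comparisons: it was lower in old controls and in treated samples than in young controls. Between treated and old samples 0 of 10 genes were called by the quasi-likelihood test of edgeR, where 4.34% of all genes were called. At an unadjusted p under 0.05 the count was 5 of 10, with 6246 of all genes, while DESeq2 called 2 of the 10 and 3102 of all genes, and limma-voom 4 of the 10 and 2718 of all genes. Between old and young controls 1 of 10 was called, against 1.68% of all genes, and between treated and young samples 1 of 10, against 16.7%. The treated samples did not overlap the old controls for 2 genes, Epas1 and Pgf, where 32.2% of all genes did not overlap. The old controls did not overlap the young controls for 1 gene, Adm, against 25.3% of all genes, and the treated samples did not overlap the young controls for Epas1 and Adm, against 33.2%. Called higher were 2.37% of all genes between treated and old samples, 1.48% between old and young controls and 9.01% between treated and young samples. Called lower, as Adm was, were 0.202% of all genes between old and young controls and 7.69% between treated and young samples. A single call among 10 genes is too few to set them apart from all genes, and the counts of separated genes lie under the shares of all genes. The median log2 fold change of the 10 genes was 0.23 between treated and old samples, with 8 of 10 above 0 and a median of -0.01 over all genes. It was -0.11 between old and young controls and 0.18 between treated and young samples, with medians of -0.01 over all genes in both. Any 2 of the comparisons share a group of libraries, so their values are not independent of each other.

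**Figure D1:**
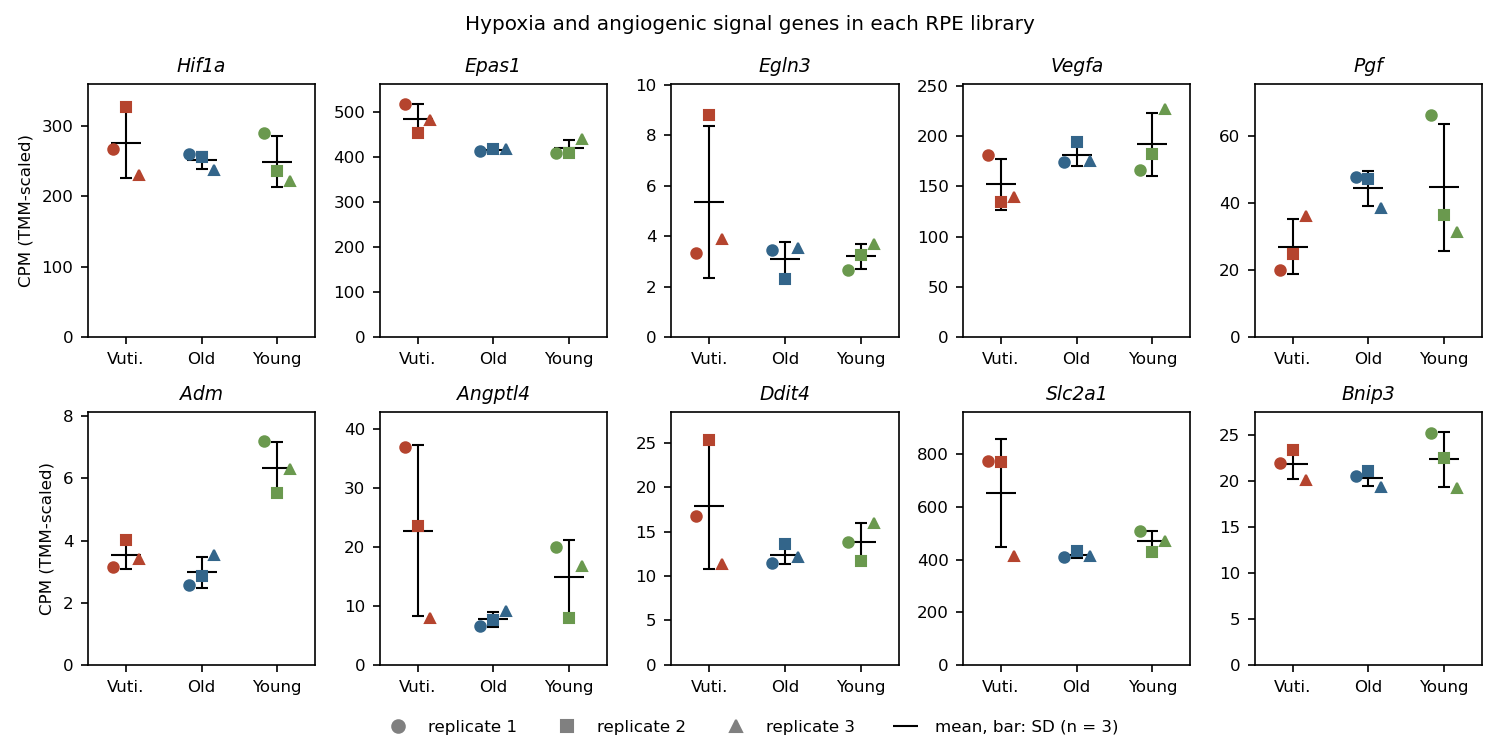
Levels of the 10 genes in CPM (vertical axes, from 0) in the 3 treated, 3 old control and 3 young control libraries, with symbols for the replicate and a bar for mean and SD (n = 3). Adm lies at or under 4.03 CPM in the treated and old control libraries and between 5.54 and 7.20 CPM in young controls, while Slc2a1 is high in treated replicates 1 and 2 and not in replicate 3.

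**Figure D2:**
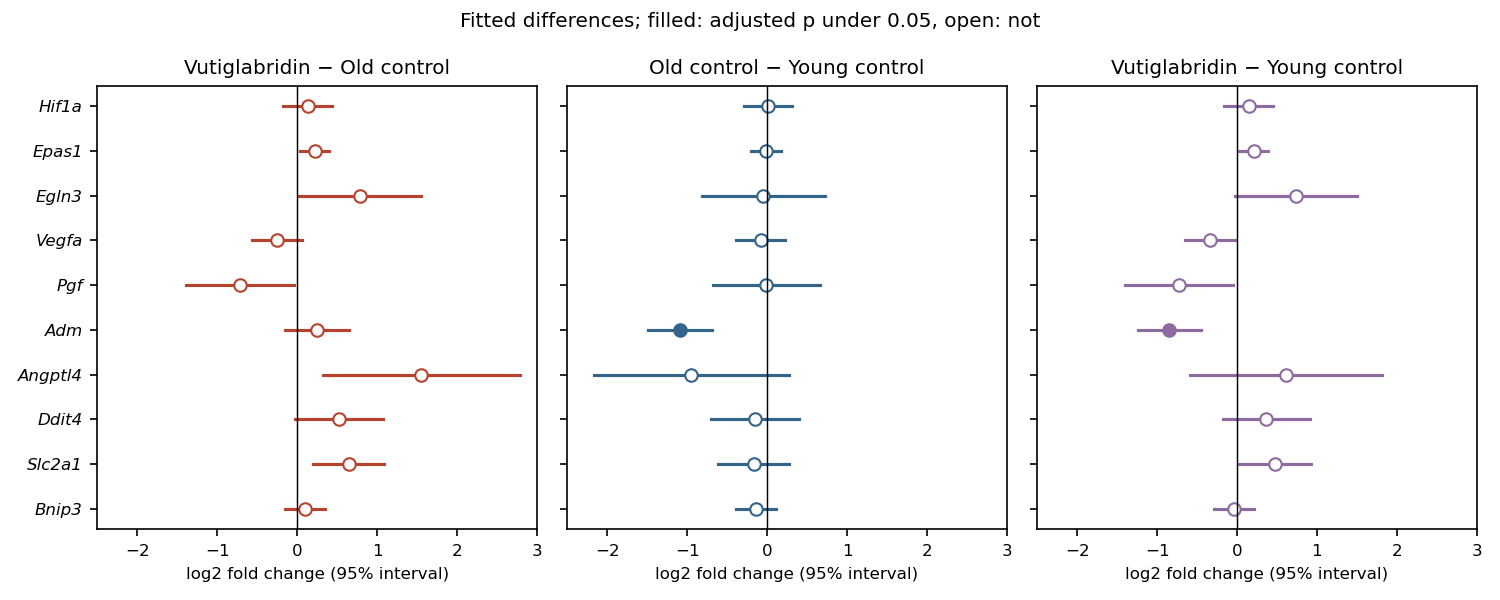
Fitted log2 fold changes (horizontal axes) with 95% intervals for the 10 genes in the 3 comparisons, with filled points for adjusted p under 0.05. Adm is the only gene with a filled point, in old against young controls and in treated samples against young controls.

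Promoter windows were read for the genes that the results turn on, because the HIF pair is known to bind the core letters ACGTG or GCGTG. The RefSeq table of build GRCm38.p6 held 10 windows of 300 bases for 8 of the 10 genes, each from 250 bases before to 50 bases after a transcript start; Epas1 and Angptl4 had no entry. Of these windows 8 held ACGTG or GCGTG on either strand, and each of the 8 genes had at least 1 such window. Vegfa and Pgf each also had a window without a match. The Vegfa window with matches lies downstream of the one without. Among all 32851 windows of that length 43.8% held a match, which is a share of windows and not of genes. The letters TGTTCT, a half-site of the glucocorticoid receptor, were in none of the 10 windows and in 19.0% of all windows. A match describes letters and not a binding site. Shown are Adm, the called gene, Slc2a1 and Ddit4, which were high in the same treated libraries, and Bnip3, which had the most matches, at 5, and whose levels differed little. Capitals mark the matches, which read CACGC or CACGT where they lie on the opposite strand.
Adm, chr7:110627407-110627706 (+ strand): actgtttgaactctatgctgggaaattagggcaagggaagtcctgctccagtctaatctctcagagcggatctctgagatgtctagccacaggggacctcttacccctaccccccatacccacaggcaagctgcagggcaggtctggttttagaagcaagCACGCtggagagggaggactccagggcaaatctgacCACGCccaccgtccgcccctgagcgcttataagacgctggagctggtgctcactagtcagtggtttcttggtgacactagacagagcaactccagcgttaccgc
Slc2a1, chr4:119108495-119108794 (+ strand): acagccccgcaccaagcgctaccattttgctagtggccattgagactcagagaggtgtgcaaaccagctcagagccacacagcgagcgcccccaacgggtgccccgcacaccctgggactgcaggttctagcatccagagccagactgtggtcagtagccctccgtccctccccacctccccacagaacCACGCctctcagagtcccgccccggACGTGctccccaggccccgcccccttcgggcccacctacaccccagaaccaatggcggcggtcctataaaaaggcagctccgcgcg
Ddit4, chr10:59951721-59952020 (- strand): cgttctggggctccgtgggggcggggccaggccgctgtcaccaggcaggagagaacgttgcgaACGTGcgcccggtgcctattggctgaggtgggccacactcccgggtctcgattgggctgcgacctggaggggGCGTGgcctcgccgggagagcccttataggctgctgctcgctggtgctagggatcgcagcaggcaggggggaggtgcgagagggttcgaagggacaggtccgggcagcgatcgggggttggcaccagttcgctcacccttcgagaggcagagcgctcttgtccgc
Bnip3, chr7:138909457-138909756 (- strand): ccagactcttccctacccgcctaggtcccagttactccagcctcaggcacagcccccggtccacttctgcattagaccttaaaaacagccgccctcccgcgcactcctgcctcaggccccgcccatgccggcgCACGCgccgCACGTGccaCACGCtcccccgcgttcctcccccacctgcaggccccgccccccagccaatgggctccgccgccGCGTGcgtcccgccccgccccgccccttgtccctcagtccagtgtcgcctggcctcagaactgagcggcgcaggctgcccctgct
Adm had matches starting at -90 and -54 from its start, both GCGTG on the opposite strand. Slc2a1 had a GCGTG match at -61 and an ACGTG match at -36, and Ddit4 an ACGTG match at -187 and a GCGTG match at -115. The Bnip3 matches include CACGTG at -108, which reads ACGTG on both strands and was in 7.2% of all windows.

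Hif1a, the alpha subunit found in most cell types, showed no difference past the spread in any comparison. It had 267, 327 and 231 CPM in treated libraries, 260.0, 255 and 237 CPM in old controls and 289, 236 and 221 CPM in young controls. The 3 groups overlapped, with the highest value in treated replicate 2. The log2 fold change between treated and old samples was 0.13 ± 0.14 (SE; adjusted p = 0.582), and the 95% interval from -0.17 to 0.44 still allows a modest difference. Without treated replicate 2, the library rich in erythroid RNA, the value was -0.01. The difference with age, old minus young, was 0.01 ± 0.14 (adjusted p = 0.988). Gm15283 overlaps the end of Hif1a on the opposite strand. Whether counting used strand is not given, so it is not known whether reads of both genes were kept apart there.

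Epas1, which encodes the alpha subunit HIF-2α and is prominent in endothelium, was the steadiest of the 10 genes among old controls. It had 517, 452 and 482 CPM in treated libraries, 413, 417 and 418 CPM in old controls and 408, 409.8 and 440.2 CPM in young controls. Each treated library was above each control library of either age. Epas1 differed on the log2 scale by 0.22 ± 0.08 between treated and old samples (95% interval 0.04 to 0.40), with an adjusted p of 0.139 over all genes. It was 0.21 ± 0.08 between treated and young samples (adjusted p = 0.108) and -0.01 ± 0.08 between old and young controls (adjusted p = 0.980). DESeq2 called both treated differences, at adjusted p = 0.0346 and 0.0358. Limma-voom called the difference from old controls (adjusted p = 0.0422) and not that from young controls (adjusted p = 0.0504), so the call depends on the test. The 17 endothelial markers summed to 1586, 1940.0 and 1792 CPM in treated libraries and to 1515, 1495 and 1600.2 CPM in old controls, and their part in the Epas1 values was not tested.

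Egln3, a prolyl hydroxylase that HIF itself induces, was high in 1 library. It had 3.33, 8.79 and 3.90 CPM in treated libraries, 3.46, 2.32 and 3.51 CPM in old controls and 2.66, 3.25 and 3.67 CPM in young controls. Treated replicate 2 stood above all other libraries, and the other 2 treated libraries lay within or close to the range of the controls. Fitted on all libraries, the log2 fold change between treated and old samples was 0.79 ± 0.34 (adjusted p = 0.193), and 0.23 (adjusted p = 0.616) without treated replicate 2. That library also held the highest erythroid and stratified epithelium sums, whose part in the Egln3 value was not tested.

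Vegfa, the main vessel growth factor that the RPE secretes, was not called in any comparison. It had 182, 135 and 139 CPM in treated libraries, 175, 194 and 175 CPM in old controls and 166, 183 and 227 CPM in young controls. Treated replicates 2 and 3 lay under all 6 control libraries, and treated replicate 1 lay among them. Vegfa differed on the log2 scale by -0.26 ± 0.14 between treated and old samples (adjusted p = 0.285) and -0.34 ± 0.14 between treated and young samples (adjusted p = 0.120). With 1 library left out the first value lay between -0.41 and -0.17 and was never called. The second lay between -0.48 without treated replicate 1, where it was called with an adjusted p of 0.0404, and -0.20 without young control replicate 3, with an adjusted p of 0.340. The 15 RPE markers summed to 18406, 12333 and 12903 CPM in treated libraries, 17247, 18852 and 16123 CPM in old controls and 23769, 21328 and 21564 CPM in young controls. The treated libraries with the lower Vegfa were those with the lower RPE sums, and the part of this in the Vegfa values was not tested. Between old and young controls Vegfa differed by -0.08 ± 0.14 (95% interval -0.39 to 0.23).

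Pgf, the placental growth factor that binds the receptor Flt1, was lower in each treated library than in each old control, without passing the test. It had 20.0, 24.9 and 36.2 CPM in treated libraries, 47.7, 47.1 and 38.4 CPM in old controls and 66.4, 36.4 and 31.4 CPM in young controls. The treated and old groups were separate, while young control replicate 1 was the highest of all libraries and the other 2 young controls lay under the old controls. Pgf differed on the log2 scale by -0.72 ± 0.30 between treated and old samples (adjusted p = 0.181) and -0.73 ± 0.30 between treated and young samples (adjusted p = 0.122). DESeq2 called the second at adjusted p = 0.0466 and limma-voom the first at adjusted p = 0.0364. The difference between old and young controls was -0.01 ± 0.30, and 0.39 without young control replicate 1.

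Adm was lower in old than in young controls and did not differ past the spread between treated and old samples. It had 3.14, 4.03 and 3.42 CPM in treated libraries, 2.56, 2.87 and 3.53 CPM in old controls and 7.20, 5.54 and 6.31 CPM in young controls. Each young control was above each of the 6 older libraries, and the treated and old groups overlapped. Raw counts were 135, 188 and 185 in treated libraries, 145, 147 and 177 in old controls and 317, 252 and 354 in young controls. With age, between old and young controls, the log2 fold change was -1.09 ± 0.18, with a 95% interval from -1.49 to -0.69 and an adjusted p of 0.0157. Between treated and young samples it was -0.85 ± 0.18, with an interval from -1.24 to -0.45 and an adjusted p of 0.0141. Between treated and old samples it was 0.24 ± 0.18, with an interval from -0.16 to 0.64 and an adjusted p of 0.425.

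The call of Adm with age was lost when any of 4 control libraries was left out. Without old control replicate 1 or 2 its adjusted p was 0.104 or 0.0820, and without young control replicate 1 or 3 it was 0.0561 or 0.0673. The fold change without these libraries stayed between -1.09 and -0.98. The call between treated and young samples was made in all 9 fits that left out 1 library, with adjusted p between 0.0156 and 0.0486. In the table Adm lies on chromosome 7 from 110226864 to 110229027 on the + strand, wholly inside Gm28863 on the opposite strand. Gm28863 had a log2 fold change of -1.09 ± 0.16 between old and young controls (adjusted p = 0.0101). Its raw counts were 152, 197 and 185 in treated libraries, 152, 158 and 183 in old controls and 301, 293 and 378 in young controls, close to those of Adm. It is not known whether reads of both genes were kept apart. Endothelial markers summed to 1515 to 1600.2 CPM in old controls and 1718 to 2000.2 CPM in young controls, the RPE markers were lower in old controls as given above, and 12 macrophage markers summed to 3730.4 to 4139 CPM in old controls and 1467 to 2475 CPM in young controls. The part of these cell types in the Adm difference was not tested.

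Slc2a1, the glucose transporter GLUT1 of the RPE and the inner blood-retinal barrier, came nearest to the threshold between treated and old samples. It had 773, 770.5 and 414 CPM in treated libraries, 408, 432 and 413 CPM in old controls and 508, 428 and 470.1 CPM in young controls. Treated replicates 1 and 2 stood above all other libraries, and treated replicate 3 lay within the old controls. The log2 fold change between treated and old samples was 0.64 ± 0.20, with a 95% interval from 0.20 to 1.09 and an adjusted p of 0.0905. Between treated and young samples it was 0.48 ± 0.20 (adjusted p = 0.124), and between old and young controls -0.17 ± 0.20 (adjusted p = 0.844). DESeq2 and limma-voom called the first difference, at adjusted p = 0.0173 and 0.0133, and limma-voom also the second (adjusted p = 0.0271), which DESeq2 did not (adjusted p = 0.0688). Gm12867, on the opposite strand within the span of Slc2a1, was itself called higher in treated than old samples, with 0.93 ± 0.22 and an adjusted p of 0.0452. It is not known whether its reads were kept apart from those of Slc2a1.

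Angptl4, a secreted inhibitor of lipoprotein lipase that responds to both hypoxia and fatty acids, varied most among the 10 genes. It had 37.0, 23.5 and 7.90 CPM in treated libraries, 6.56, 7.60 and 9.08 CPM in old controls and 20.0, 7.94 and 16.9 CPM in young controls. Treated replicates 1 and 2 were the highest libraries, treated replicate 3 lay within the old controls, and the young controls spread between both. The log2 fold change between treated and old samples was 1.55 ± 0.54 (adjusted p = 0.128), and its 95% interval ran from 0.32 to 2.79. Limma-voom called it at adjusted p = 0.0327 and DESeq2 did not (adjusted p = 0.0532). With age, old minus young, it was -0.95 ± 0.53 (adjusted p = 0.586), with an interval from -2.17 to 0.28. LOC118568328 overlaps Angptl4 on the opposite strand, and it is not known whether reads of the 2 genes were kept apart there.

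Ddit4, also known as REDD1, restrains the growth kinase complex mTORC1 in hypoxia and is also a known target of the glucocorticoid receptor. It had 16.8, 25.3 and 11.3 CPM in treated libraries, 11.5, 13.6 and 12.1 CPM in old controls and 13.9, 11.7 and 15.9 CPM in young controls. Treated replicates 1 and 2 were above all control libraries and treated replicate 3 was below them. Its log2 fold change between treated and old samples was 0.52 ± 0.25 (adjusted p = 0.222), and 0.18 without treated replicate 2. With age it was -0.16 ± 0.25 (adjusted p = 0.892).

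Bnip3, a receptor for mitophagy on the outer mitochondrial membrane and a classical HIF target, held a narrow range. It had 22.0, 23.4 and 20.2 CPM in treated libraries, 20.6, 21.1 and 19.4 CPM in old controls and 25.3, 22.6 and 19.3 CPM in young controls. All 3 groups overlapped. Bnip3 differed on the log2 scale by 0.10 ± 0.11 between treated and old samples (95% interval -0.15 to 0.35) and -0.13 ± 0.11 between old and young controls (95% interval -0.39 to 0.12).

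**Figure D3:**
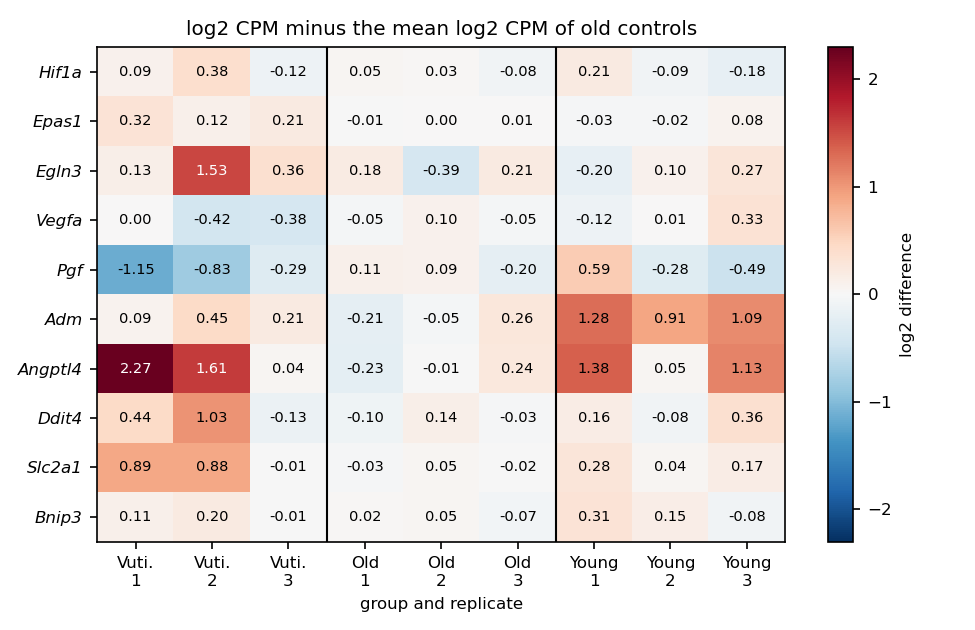
Level of each gene in each library as log2 CPM minus the mean log2 CPM of the 3 old controls (colour and printed value), with libraries in columns by group and replicate. Angptl4 and Slc2a1 lie at 2.27 and 0.89 in treated replicate 1, at 1.61 and 0.88 in replicate 2, and at 0.04 and -0.01 in replicate 3.

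Treated replicate 3 thus differed from the other treated libraries for Slc2a1, Angptl4 and Ddit4. Fitted without it, these 3 genes were called higher in treated than old samples, with log2 fold changes of 0.89 (adjusted p = 0.000422), 1.97 (adjusted p = 0.00935) and 0.77 (adjusted p = 0.0223). In that fit 4092 of all genes were called, against 1098 with all libraries. Slc2a1 and Ddit4 were then also called between treated and young samples, with 0.73 (adjusted p = 0.000654) and 0.62 (adjusted p = 0.0382). With either of treated replicates 1 and 2 left out instead, none of the 10 genes was called between treated and old samples. The labels give no reason to leave out replicate 3, and these values show how far the group spread. The treated libraries also differed in markers of other tissues. Sums over 12 skeletal muscle markers were 425, 574 and 138 CPM in treated replicates 1 to 3, against 155, 392 and 362 CPM in old controls, and sums over 14 rod markers were 259, 601 and 799 CPM, against 279, 290.3 and 380.1 CPM. The part of these tissues in the 3 genes was not tested.

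**Figure D4:**
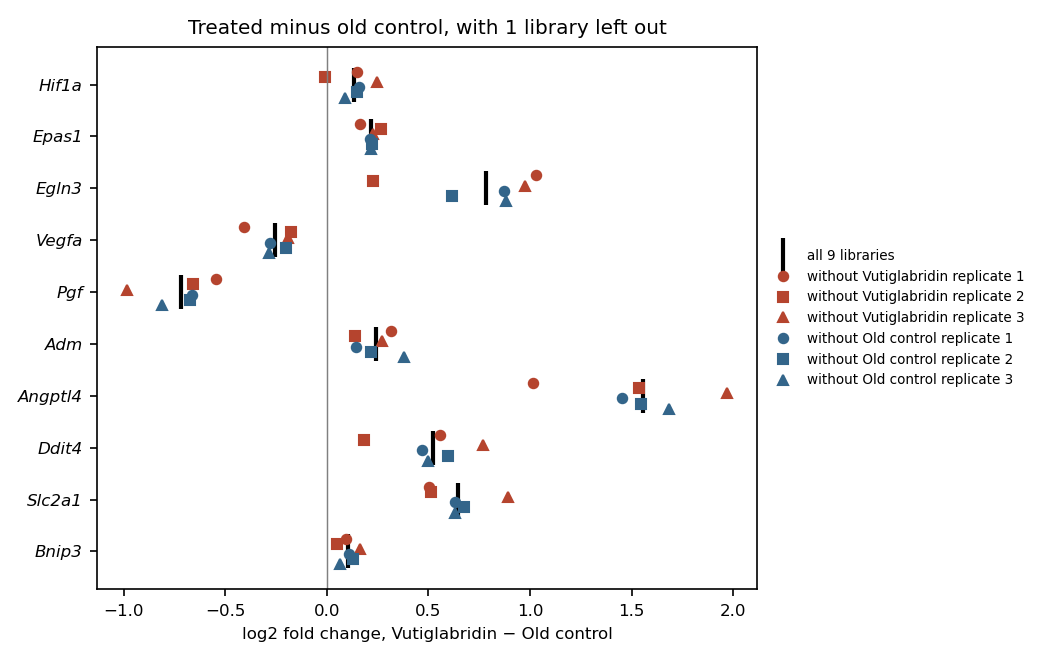
Log2 fold change between treated and old samples (horizontal axis) for each gene with all 9 libraries (bars) and with 1 treated or old control library left out (points). Angptl4 lies between 1.01 without treated replicate 1 and 1.97 without treated replicate 3, and only Hif1a crosses 0, at -0.01 without treated replicate 2.

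Across the 9 libraries the log2 CPM of Slc2a1 followed that of Angptl4 with a Pearson r of 0.90 and that of Ddit4 with an r of 0.87, while Angptl4 and Ddit4 had an r of 0.75. Pgf ran against Epas1 with an r of -0.78. The highest r of Vegfa with another of the 10 genes was 0.20, with Adm, and the lowest were -0.60 with Egln3 and -0.55 with Hif1a. These values describe 9 libraries that fall into 3 groups, and treated replicates 1 and 2 weigh heavily in them. Among 19494 genes compared, those most like Slc2a1 were Herc2, Ppp2r5a and Pcolce2, each with an r of 0.99, and those most like Adm were Gm34881 and Art4 with 0.97 and Mir5046 with 0.96. Among 19495 genes compared, those most like Vegfa were Rtn3, Cpe and Nog with 0.96, and the one most like Epas1 was Npepps with 0.99. They are the highest of many values over 9 libraries, and each of the 10 genes had a highest r of at least 0.9596. Such values do not show shared control.

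Of the other parts of the oxygen-sensing machinery, Arnt, the stable partner of both alpha subunits, rose. Arnt had 181, 184 and 157 CPM in treated libraries, 118, 107 and 117 CPM in old controls and 97.1, 119.5 and 132 CPM in young controls. Each treated library was above each control, with a log2 fold change of 0.61 ± 0.12 against old controls (adjusted p = 0.0277) and 0.58 ± 0.12 against young controls (adjusted p = 0.0122). Vhl, the ligase component that removes the alpha subunits, fell between treated and young samples, by 0.40 on the log2 scale (adjusted p = 0.0132). Its difference between treated and old samples was -0.31 ± 0.08 (adjusted p = 0.0611). In the list of 11 HIF subunits and oxygen sensors, which includes Hif1a, Epas1 and Egln3, 1 gene rose and 0 fell between treated and old samples, 0 were called between old and young controls, and 1 rose and 1 fell between treated and young samples. Median log2 fold changes of the list were 0.13, -0.01 and 0.15 in that order, and 4.34%, 1.68% and 16.7% of all genes were called.

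Between treated and old samples 4 of 31 tested hypoxia response genes outside the 10 rose and 0 fell, against 4.34% of all genes called. The 4 included Lox, a collagen cross-linking oxidase, P4ha2, a collagen prolyl hydroxylase, and Pfkfb3, a regulator of glycolysis. Lox had 111, 162 and 96.3 CPM in treated libraries, 53.3, 48.5 and 46.3 CPM in old controls and 33.6, 30.7 and 18.3 CPM in young controls, so the groups did not overlap. Its log2 fold change was 1.32 ± 0.24 between treated and old samples (adjusted p = 0.0274) and 2.16 ± 0.25 between treated and young samples (adjusted p = 0.00222). P4ha2 and Pfkfb3 differed by 0.63 ± 0.12 (adjusted p = 0.0236) and 0.88 ± 0.18 (adjusted p = 0.0330). The list had a median of 0.14, and 20 of 31 genes were above 0. With age 0 of 31 were called, against 1.68% of all genes. Between treated and young samples 6 rose and 1, Ndrg1, fell, against 9.01% and 7.69% of all genes.

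Of 16 genes of glycolysis known as hypoxia targets, Hk2, the inducible hexokinase, and Eno2, an enolase, rose between treated and old samples and 0 fell. Hk2 had 59.0, 116 and 43.4 CPM in treated libraries, 26.4, 26.6 and 28.3 CPM in old controls and 16.2, 18.3 and 16.3 CPM in young controls. Its log2 fold change was 1.43 ± 0.30 (adjusted p = 0.0387), and with 1 library left out it lay between 0.92 and 1.70, lowest without treated replicate 2, the library rich in erythroid RNA. Eno2 had a log2 fold change of 0.61 ± 0.14 (adjusted p = 0.0413). The other 14 did not pass the test, where 4.34% of all genes were called, and the list median was 0.13. Between old and young controls 0 of 16 were called, against 1.68% of all genes. Between treated and young samples 3 rose and 0 fell, against 9.01% and 7.69% of all genes.

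The receptors of the ligands were measured beside them. Of 10 VEGF ligands, receptors and co-receptors, which include Vegfa and Pgf, Flt4, the receptor of Vegfc and Vegfd in lymphatic vessels, rose between treated and old samples and 0 fell. Flt4 had 23.3, 26.1 and 23.9 CPM in treated libraries, 17.7, 16.2 and 20.5 CPM in old controls and 20.9, 21.2 and 21.9 CPM in young controls, a log2 fold change of 0.43 ± 0.10 (adjusted p = 0.0476). Flt1, which binds both Vegfa and Pgf, had 225, 257 and 236 CPM in treated libraries, 180.1, 178 and 201 CPM in old controls and 178, 209 and 239 CPM in young controls. Its treated values were above each old control, with 0.36 ± 0.11 (adjusted p = 0.0905), and overlapped the young controls. Kdr, the main signalling receptor of Vegfa, fell between treated and young samples, by 0.30 on the log2 scale (adjusted p = 0.0241). No gene of the list was called between old and young controls. Beside these counts, 4.34% of all genes were called between treated and old samples, 1.68% with age and 16.7% between treated and young samples. Nrp1, a co-receptor, had -0.35 ± 0.11 between treated and old samples (adjusted p = 0.0904).

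**Figure D5:**
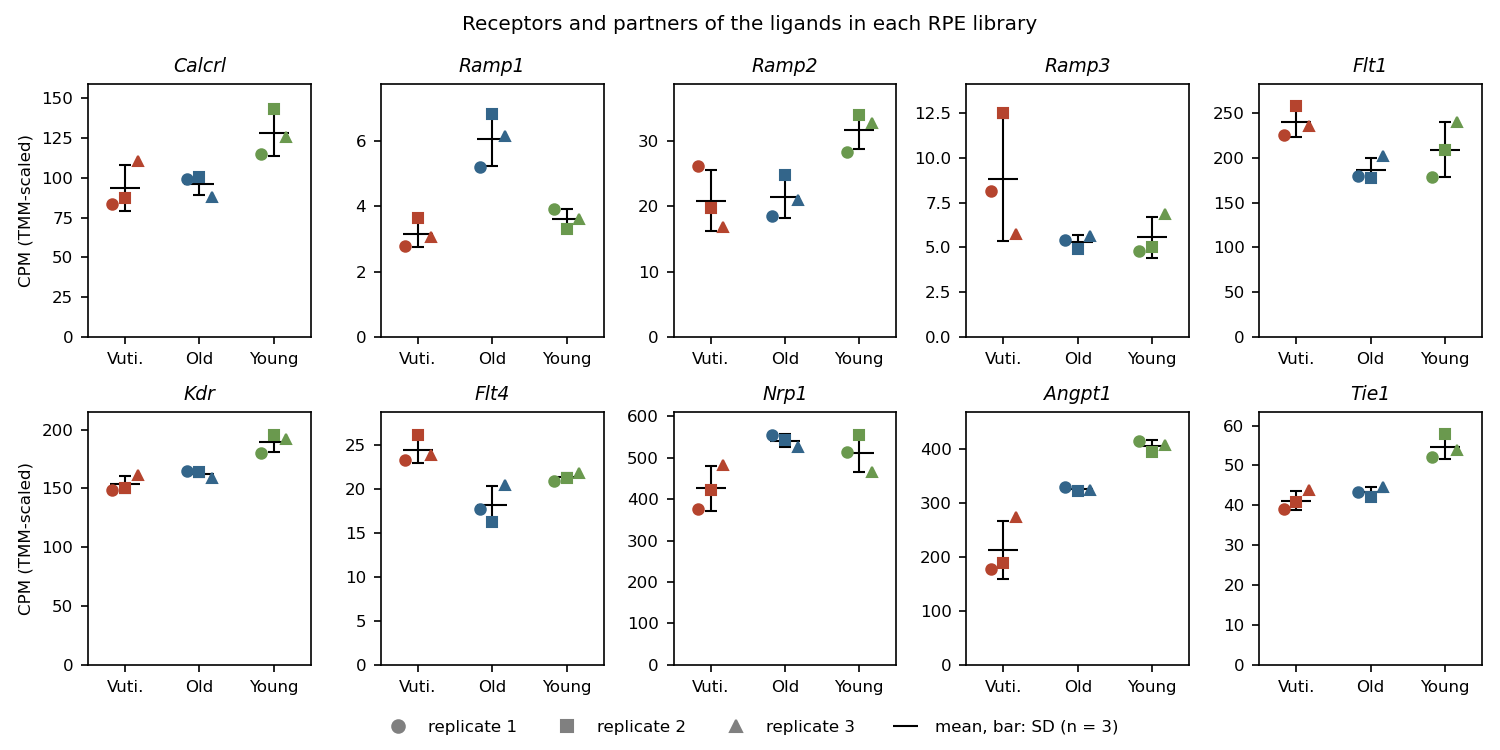
Levels in CPM (vertical axes, from 0) of receptors and partners of the ligands in the 3 treated, 3 old control and 3 young control libraries, with mean and SD bars (n = 3). Angpt1 lies between 177 and 275 CPM in treated samples, between 323 and 331 CPM in old controls and between 395 and 415 CPM in young controls.

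Of 8 adrenomedullin peptides and receptors 7 were tested, Adm included. The shares of all genes called were 4.34% between treated and old samples, 1.68% with age and 16.7% between treated and young samples. Ramp1, which turns the receptor Calcrl towards the peptide CGRP, fell between treated and old samples. It had 2.79, 3.62 and 3.07 CPM in treated libraries, 5.20, 6.82 and 6.13 CPM in old controls and 3.91, 3.30 and 3.60 CPM in young controls. The old controls were above all other libraries, with a log2 fold change of -0.93 ± 0.17 between treated and old samples (adjusted p = 0.0225) and 0.75 ± 0.17 between old and young controls (adjusted p = 0.0557). Both values use the old controls, so they are not independent. Calcrl, the receptor itself, and Ramp2, the partner that makes it an adrenomedullin receptor, fell between treated and young samples, by 0.45 and 0.60 on the log2 scale (both adjusted p = 0.0351). Between old and young controls Calcrl and Ramp2 had -0.41 ± 0.12 (adjusted p = 0.166) and -0.56 ± 0.17 (adjusted p = 0.160), with each old control below each young control for both genes, and Adm was the one gene of the list called.

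Of 11 angiopoietins, angiopoietin-like genes and Tie receptors, which include Angptl4, Angpt1, the vessel-stabilising ligand of Tek, fell between treated and old samples and 0 rose. Angpt1 had 177, 189 and 275 CPM in treated libraries, 331, 323 and 325 CPM in old controls and 415, 395 and 409 CPM in young controls, and no 2 groups overlapped. The log2 fold change was -0.61 ± 0.14 between treated and old samples (adjusted p = 0.0452), -0.93 ± 0.15 between treated and young samples (adjusted p = 0.00488) and -0.32 ± 0.14 between old and young controls (adjusted p = 0.434). Between treated and young samples 4 genes fell and 0 rose: Angpt1, Angptl1 and both Tie receptors, Tek and Tie1. Among all genes 7.69% fell and 9.01% rose there. Of the 17 endothelial markers 1 was called higher and 6 lower in that comparison, with sums of 1586, 1940.0 and 1792 CPM in treated libraries and 1718, 1773 and 2000.2 CPM in young controls. Tek, Tie1 and Kdr are themselves among the 17 markers and among the 6 called lower, so the markers are not independent of them. The part of endothelium in the values of Tek, Tie1, Kdr, Calcrl and Ramp2 was not tested. Of 13 inhibitors of angiogenesis 2 rose and 1 fell between treated and young samples, against 16.7% of all genes called. Between treated and old samples 1 rose and 1 fell, against 4.34% of all genes called. Thbs1, a matrix protein that blocks vessel growth, rose by 1.42 ± 0.19 on the log2 scale (adjusted p = 0.00887), with 1289.7, 1451 and 992 CPM in treated libraries, 506, 482 and 406 CPM in old controls and 581, 379.6 and 406 CPM in young controls. Sparcl1, a matricellular protein of vessels, differed by -0.34 ± 0.08 between treated and old samples (adjusted p = 0.0410). Serpinf1, the inhibitor PEDF that the RPE secretes, differed by 0.08 ± 0.18 (adjusted p = 0.813).

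The intracellular effectors and lipid targets were set beside their own lists. Of 12 brakes and sensors of mTORC1, which include Ddit4, Ddit4l, its paralog, and Sesn3 fell between treated and old samples, with -0.60 ± 0.14 (adjusted p = 0.0470) and -0.45 ± 0.10 (adjusted p = 0.0385), and 0 rose. Of 10 tested glucose transporters, Slc2a1 included, and of 9 genes of the BNIP3 family and other mitophagy receptors 0 were called between treated and old samples. Slc2a3, the neuronal glucose transporter, had 0.15 ± 0.15 and Bnip3l, the paralog of Bnip3, had 0.18 ± 0.09. Of 14 target genes of the fatty acid receptors PPAR, which include Angptl4, 0 were called between treated and old samples. Fabp4, a fatty acid carrier, rose between old and young controls by 0.92 ± 0.19 on the log2 scale (adjusted p = 0.0440), the only list gene besides Adm called there. Between treated and young samples the calls were 1 higher and 3 lower in the mTORC1 list and 0 higher and 1 lower, Slc2a2, among glucose transporters. There were 0 in the BNIP3 list and 3 higher and 3 lower among PPAR targets. Shares of all genes called were 4.34% between treated and old samples, 1.68% with age and 16.7% between treated and young samples.

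Ddit4 also belongs to a list of 12 glucocorticoid receptor targets, of which 6 rose and 0 fell between treated and old samples. The list median was 1.30 and all 12 were above 0. Klf9, a transcription factor, had 231, 292 and 202 CPM in treated libraries, 104, 108 and 111 CPM in old controls and 102, 121 and 133 CPM in young controls. Its log2 fold change was 1.16 ± 0.14 (adjusted p = 0.00600), and those of Per1, a clock gene, and Fkbp5, a chaperone of the receptor, were 2.08 ± 0.27 (adjusted p = 0.0108) and 1.87 ± 0.25 (adjusted p = 0.0131). Summed over the list the level was 2221, 2463 and 1331 CPM in treated replicates 1 to 3, 919.9 to 1021 CPM in old controls and 1105 to 1151 CPM in young controls. For this sum treated replicate 3 was the lowest of the treated libraries, and above all controls. Not each gene followed the sum, as Per1 had raw counts of 2622, 4112 and 3594 in treated replicates 1 to 3. A link between this sum and the values of Slc2a1, Angptl4 and Ddit4 was not tested. Between treated and young samples 6 also rose and 0 fell, and with age 0 of 12 were called. Called higher were 2.37% of all genes between treated and old samples and 9.01% between treated and young samples. With age 1.68% of all genes were called.

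Many calls of list genes were lost when 1 library was left out. Of the 20 called list genes outside the 10 between treated and old samples, none was called without old control replicate 1 or without old control replicate 2, and 1, Klf9, without old control replicate 3. Without treated replicate 1 or 2, 10 of the 20 were not called, and without young control replicate 2, 12. Without treated replicate 3 all 20 were called. The named genes kept their direction in each of these fits. Of the 39 called between treated and young samples, 2 to 17 were not called when a given library was left out, with most lost without young control replicate 2. Among those named, Kdr was called in 3 of 9 such fits, Calcrl and Tek in 2, Ramp2 in 1 and Angptl1 in 5. Vhl, Tie1 and Ndrg1 were lost only without young control replicate 2. Fabp4, called with age, was called in 3 of 9 fits, those without treated replicate 2 or 3 or young control replicate 2. Calls with age were also gained: without treated replicate 3, Pfkfb3, Ramp1 and Vash2 were called higher and Tek, Tie1 and Angpt1 lower in old than in young controls. In the fit of 7 libraries, without treated replicate 2 and young control replicate 1, Hk2, Ramp1 and Cd36 were called higher and Ndrg1, Per1 and Tsc22d3 lower.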

How the data were processed

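RNA of dissected RPE was extracted with TRIzol and made into stranded total RNA libraries, per the labels' protocols. Per the submitters' processing notes, the authors used Bowtie2 2.3.4.1, featureCounts 1.6.0 and DESeq2, with build GRCm38. The deposited table holds raw counts and FPKM per gene for 9 libraries. Each deposited FPKM is the count over gene length and library total, on the usual scale (relative tolerance 1e-06), and the deposited length equals the whole gene span for all 40200 genes with 1 span, so levels are not compared between genes. The chromosome versions in the table are those of GRCm39, and gene positions are the deposited ones. Promoter windows are given in GRCm38.p6, so their positions cannot be compared with the gene positions. Whether counting used strand is not given in the sources used here.

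Only counts were tested. Genes were kept by filterByExpr of edgeR 4.0.16 (R 4.3.3), scaled by TMM and fitted with all 9 libraries by the robust quasi-likelihood method, with Benjamini-Hochberg adjustment over 25273 genes; all 10 genes passed. Standard errors were derived by dividing each fold change by the root of its F statistic. Alternatives were other size factors, filters and thresholds, DESeq2 1.42.0, limma-voom (limma 3.58.1) with quality weights, fits of just 2 groups, a block for replicate number, and each library left out. A fit of 7 libraries was added after the data were seen. The scripts were tested on simulated counts. The genes, gene lists and alternatives were chosen with earlier results of these data known. All 10 genes are described; from each list the called genes, up to 4 per comparison by p, and direct partners of the 10 could be named, and the 3 genes most alike by Pearson r of log2 CPM (prior count 2). A gene that this rule would name is not reported here.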

Additional observations from a re-analysis of the deposited data

How the results depend on the processing

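Of 570 alternative values for the 10 genes, 547 kept their side of the threshold and either their direction or a value within 1 SE, 15 passed it only under the alternative, 4 lost it and 4 turned direction by more. The turned values are Hif1a between treated and old samples, -0.0081 without treated replicate 2 (range with 1 library left out -0.0081 to 0.248) and -0.0111 in the fit of 7 libraries, and Pgf between old and young controls, 0.389 without young control replicate 1 (range -0.209 to 0.389) and 0.389 in the fit of 7 libraries; none passed the test and the cause was not tested. The 4 lost calls are those of Adm between old and young controls given above.

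Of the 10 genes, DESeq2 called 2 between treated and old samples and 3 between treated and young samples, limma-voom called 4 and 2, and at adjusted p under 0.1 1 gene, Slc2a1, was called between treated and old samples. Over all genes DESeq2 called 3102 between treated and old samples and 949 between old and young controls, and 5901 between treated and young samples; limma-voom called 2718, 2031 and 3831. At adjusted p under 0.1 the counts were 3006 between treated and old samples, 677 between old and young controls and 6911 between treated and young samples, and with only the 2 groups compared they were 178, 1239 and 1041. The fit of 7 libraries called 1794 genes between treated and young samples. With 1 library left out, the 10 genes gave 0 to 3 calls between treated and old samples, 0 to 1 between old and young controls and 1 to 3 between treated and young samples; all genes gave 25 to 4092, 73 to 688 and 1775 to 6086. Leaving out a library also lowers the residual degrees of freedom. Scaling by total counts alone turned the split between treated and old samples to 481 higher and 753 lower, where TMM gave 599 and 499.

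Libraries of different groups were correlated after the mean of its own group was subtracted from each gene's log2 CPM. These correlations thus describe deviations within groups and not whole profiles. For same-numbered libraries they ran from -0.0795 to 0.1481, inside the range of -0.2977 to 0.2513 for pairs with different numbers. Whether libraries of the same number shared a processing step was not tested. With the replicate block 317 genes were called between treated and old samples, and 0, 1 and 1 of the 10 genes in the 3 comparisons. Of the 20 list genes called between treated and old samples, 8 were called with the block: Lox, Eno2, Ramp1, Thbs1, Klf9, Per1, Fkbp5 and Tsc22d3. The fit of 7 libraries called 11 of the 20, and the fit of only the 2 groups compared called 7. Between old and young controls edgeR with all libraries called 1 list gene outside the 10. There DESeq2 called 9, limma-voom 22 and the fit of only the 2 groups 16. In the same order these 3 called 949, 2031 and 1239 of all genes, so the number of list calls with age depends on the test.

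With 3 libraries per group the 95% intervals of Angptl4, Egln3, Pgf and Ddit4 between treated and old samples span more than 1 on the log2 scale.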
